A study of Mus musculus with 10 samples.

Results

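The genes described here are the 10 rows of the count table for Atf4, Ddit3, Trib3, Chac1, Asns, Phgdh, Psat1, Psph, Shmt2 and Mthfd2, picked by gene symbol from 24015 listed genes as genes of the integrated stress response and of serine and one-carbon metabolism. All 10 symbols were found, and all 10 passed the filter on low counts that left 12971 genes for testing. RNA was sequenced from MAF9 cells, cultured C57BL/6 mouse bone marrow transduced with the MLL-AF9 fusion gene, so that the controls carry the fusion too. The cells grew in serum-supplemented IMDM with IL-3, and the fusion protein drives their growth as an acute leukemia model. They received MM-401 (MM401 in the labels), which blocks the binding of MLL1 to WDR5, EPZ5676 (EPZ in the labels), which inhibits the methyltransferase DOT1L, MI-2-2 (MI in the labels), which blocks MENIN, iBET, or DMSO as mock treatment. Each inhibitor was given for 4 days at the dose that inhibited growth by 50%, and each of the 5 conditions had 2 libraries. The concentrations are not used here, and at these doses cells that grow more slowly are compared with mock-treated cells. Genes are called by the symbols of the table, which holds no other identifier.

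ATF4 is a transcription factor of the bZIP class. When a cell lacks amino acids, accumulates misfolded proteins or is otherwise stressed, kinases phosphorylate the initiation factor eIF2, bulk translation drops and the translation of ATF4 mRNA rises, so that the level of Atf4 mRNA is only part of what sets ATF4 activity. ATF4 then activates genes for amino acid synthesis, amino acid transport and tRNA charging, together with CHOP (Ddit3) and feedback inhibitors. Serine is made from a glycolytic intermediate by PHGDH, PSAT1 and PSPH, and SHMT2 and MTHFD2 pass a carbon unit from serine to folate in mitochondria, which dividing cells, leukemia cells among them, use for purine and thymidine synthesis.

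The libraries held between 20394762 and 29473127 counted reads, so that 1 read was at most 0.049 CPM (counts scaled to a common library total), and every gene described had at least 267 reads in every library. DMSO replicate 2 stood apart from the rest. Over 4 genes of the Y chromosome it held 3630 reads, where the other 9 libraries held 0 to 2, and Xist was at 4.76 CPM against 928 to 3051 CPM elsewhere. This is the pattern of male cells in DMSO replicate 2 and of female cells in the other 9 libraries. The 2 DMSO libraries are thus not duplicates of 1 culture, and this difference is part of every comparison with DMSO. Since all groups share the estimate of spread, it also enters the tests between inhibitors. Of genes with at least 1 CPM, 15.8% were over 2-fold apart between the DMSO libraries, against 1.41% to 4.29% within the inhibitor groups. Where a call of these 10 genes against DMSO changed without 1 of the DMSO libraries, this is given beside it. Markers of the labelled cell type were at unlike levels in the mock-treated cells. In them 10 progenitor and leukemia genes summed to between 11240 and 14500 CPM. Granule enzymes gave much of this sum (Elane 4100 to 4542, Prtn3 2103 to 2572 and Ctsg 1254 to 2860 CPM). Kit was at 49.7 to 184 CPM, Hoxa9 at 388 to 482 CPM and Mpo at 418 to 4927 CPM. Cd34 (1.01 to 1.91 CPM) and Flt3 (0.042 to 1.42 CPM) were near the floor. Erythroid genes (6) summed to at most 1.90 CPM, 8 lymphoid genes to at most 8.43 CPM and 6 stromal genes to at most 1.23 CPM.

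In mock-treated cells the 10 genes covered a wide range of levels. On the per-length scale (TMM-normalized RPKM, with exon lengths from GENCODE M21), Atf4 had the highest mean, 294, followed by Shmt2 at 148, Psat1 at 126 and Asns at 119. The 2 DMSO libraries of Asns (82.6 and 155) spanned those of Shmt2 (143 and 152) and Psat1 (114 and 139), so that the order of these 3 genes is not set. Mthfd2 was at 61.5, Phgdh at 32.4, Trib3 at 22.7, Chac1 at 20.8, Psph at 14.6 and Ddit3 lowest, with libraries at 14.7 and 9.26. From Phgdh downwards, each gene overlapped its next neighbour in this order between the DMSO libraries. Per length, the mRNA of the last serine enzyme, Psph, was thus far below that of the middle one, Psat1. Other levels of these genes and of the pathway genes below are TMM-normalized CPM, which compare 1 gene between libraries and not genes with each other. Marker levels, above and below, are CPM by library total without TMM. The plot of normalized counts by library shows every value.

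**Figure D1:**
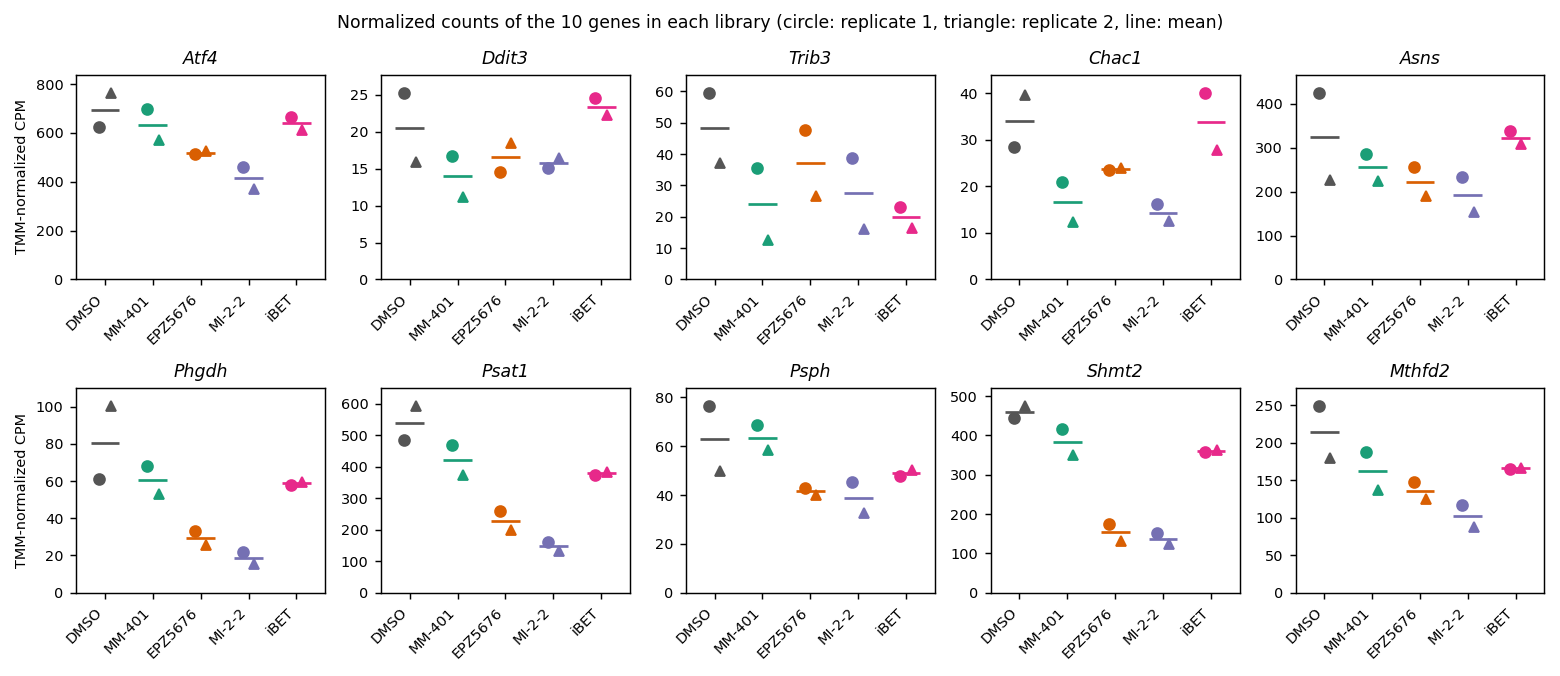
TMM-normalized CPM (y axis, from 0) of each of the 10 genes in the 2 libraries of each condition (circle for replicate 1, triangle for replicate 2, line for the mean). Phgdh, Psat1 and Shmt2 are lower in both EPZ5676 and both MI-2-2 libraries than in the 6 other libraries, whereas the symbols of Ddit3 and Trib3 overlap between most conditions.

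The 3 enzymes that make serine were lowest with MI-2-2 and EPZ5676. Phgdh encodes the dehydrogenase of the first step. It was at 61.2 and 100.1 CPM in the DMSO libraries, at 33.0 and 25.5 CPM with EPZ5676 and at 22.1 and 15.5 CPM with MI-2-2. Every EPZ5676 and MI-2-2 library lay below both DMSO libraries, although these differed from each other by 1.64-fold. Phgdh fell 2.76-fold with EPZ5676 (log2 fold change -1.46, standard error 0.278, edgeR adjusted p = 0.00562) and 4.29-fold with MI-2-2 (log2 fold change -2.10, standard error 0.284, edgeR adjusted p = 0.00146). With 1 library left out, its log2 fold change ran from -1.77 to -1.04 with EPZ5676 and from -2.41 to -1.67 with MI-2-2. Psat1, the aminotransferase of the second step, was at 483 and 592 CPM in DMSO, at 259.6 and 199 CPM with EPZ5676 and at 161 and 134 CPM with MI-2-2. Again no library of either inhibitor reached the range of DMSO. Psat1 fell 2.35-fold with EPZ5676 (log2 fold change -1.23, standard error 0.192, edgeR adjusted p = 0.00261) and 3.64-fold with MI-2-2 (log2 fold change -1.87, standard error 0.196, edgeR adjusted p = 0.000707). In a culture, fewer cells that carry an mRNA and less of it per cell cannot be told apart.

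Psph, the phosphatase of the last step, moved less. It was at 76.2 and 49.9 CPM in DMSO, at 42.7 and 40.2 CPM with EPZ5676 and at 45.2 and 32.4 CPM with MI-2-2. All 4 inhibitor libraries lay below both DMSO libraries, of which replicate 2 was near them. Psph fell 1.63-fold with MI-2-2 (log2 fold change -0.70, standard error 0.228, edgeR adjusted p = 0.0395), and with EPZ5676 its log2 fold change of -0.61 missed the threshold (95% interval -1.13 to -0.08, edgeR adjusted p = 0.0676). Psph passed for EPZ5676 without DMSO replicate 2 (edgeR adjusted p = 0.0146), and for MI-2-2 it lost its call without DMSO replicate 1 or without MI-2-2 replicate 2 (highest edgeR adjusted p = 0.225). Of its exon bases, 10.4% are shared with a transcript of Cct6a on the other strand, and whether the counts use strand is not given in the sources used here.

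Of the mitochondrial enzymes, Shmt2, the hydroxymethyltransferase that splits serine into glycine and a folate-bound carbon unit, was at 445 and 474 CPM in DMSO. It was at 176 and 133 CPM with EPZ5676 and at 151 and 124 CPM with MI-2-2. Its DMSO libraries were the closest of the 10 genes, 1.06-fold apart. Shmt2 fell 2.98-fold with EPZ5676 (log2 fold change -1.58, standard error 0.175, edgeR adjusted p = 0.000824) and 3.34-fold with MI-2-2 (log2 fold change -1.74, standard error 0.175, edgeR adjusted p = 0.000657). Mthfd2, the dehydrogenase and cyclohydrolase of the next step, was at 249 and 180.4 CPM in DMSO, at 148 and 125 CPM with EPZ5676 and at 117 and 87.7 CPM with MI-2-2. It fell 2.10-fold with MI-2-2 (log2 fold change -1.07, standard error 0.223, edgeR adjusted p = 0.00728) and 1.57-fold with EPZ5676, where it was just past the threshold (log2 fold change -0.65, standard error 0.221, edgeR adjusted p = 0.0489). The call with EPZ5676 was lost without DMSO replicate 1 and without either EPZ5676 library (highest edgeR adjusted p = 0.222), and that with MI-2-2 was lost without MI-2-2 replicate 2 (edgeR adjusted p = 0.0600).

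Atf4 itself was at 624 and 763 CPM in DMSO, at 512 and 525 CPM with EPZ5676 and at 462 and 370.5 CPM with MI-2-2. As for Phgdh it was lowest with MI-2-2 and next with EPZ5676, and the differences were smaller. Atf4 fell 1.67-fold with MI-2-2 (log2 fold change -0.74, standard error 0.173, edgeR adjusted p = 0.0117), a call that was lost without MI-2-2 replicate 2 (edgeR adjusted p = 0.0871). With EPZ5676 both libraries were below DMSO, but the log2 fold change of -0.42 missed the threshold (95% interval -0.82 to -0.02, edgeR adjusted p = 0.0876) and passed it without DMSO replicate 1 (edgeR adjusted p = 0.0329). Ddit3, which encodes CHOP, a bZIP factor that promotes cell death under lasting stress, was at 25.2 and 15.9 CPM in DMSO, at 14.5 and 18.5 CPM with EPZ5676 and at 15.0 and 16.5 CPM with MI-2-2. The inhibitor libraries overlapped the DMSO libraries. Its log2 fold change was -0.32 with EPZ5676 (95% interval -0.96 to 0.32, edgeR adjusted p = 0.395) and -0.38 with MI-2-2 (95% interval -1.02 to 0.26, edgeR adjusted p = 0.297).

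Of the targets, Chac1, a gamma-glutamylcyclotransferase that degrades glutathione, was at 28.5 and 39.5 CPM in DMSO, at 23.5 and 23.8 CPM with EPZ5676 and at 16.3 and 12.5 CPM with MI-2-2. It fell 2.37-fold with MI-2-2 (log2 fold change -1.24, standard error 0.308, edgeR adjusted p = 0.0144), and lost the call without DMSO replicate 2 or MI-2-2 replicate 2. With 1 library left out, its log2 fold change ran from -1.46 to -0.96. With EPZ5676 its log2 fold change was -0.52 (edgeR adjusted p = 0.206). Trib3, a pseudokinase that holds back ATF4 and CHOP, was the gene farthest apart between the libraries of MM-401, of EPZ5676 and of MI-2-2. It was at 59.4 and 37.0 CPM in DMSO, at 47.8 and 26.5 CPM with EPZ5676 and at 38.8 and 16.2 CPM with MI-2-2, so that the conditions overlapped, and its log2 fold change with MI-2-2 was -0.81 with a 95% interval of -2.15 to 0.53. Asns, the synthetase that makes asparagine, was at 424 and 226 CPM in DMSO, at 256 and 189.6 CPM with EPZ5676 and at 233 and 153 CPM with MI-2-2. Its DMSO libraries were 1.88-fold apart, and with both of them it was not called (edgeR adjusted p = 0.213 and 0.0961). Without DMSO replicate 2, Asns had a log2 fold change of -0.90 with EPZ5676 and -1.10 with MI-2-2 (edgeR adjusted p = 0.0410 and 0.0191), and without DMSO replicate 1 of -0.02 and -0.22 (edgeR adjusted p = 0.963 and 0.526).

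ATF4 binds DNA with C/EBP factors at composite elements. The letters TGATGNAA, the core of such elements, were searched on both strands in windows from 250 bases before to 50 bases after each RefSeq gene start (GRCm38.p6, a later build than the mm9 named in the submitters' processing notes). All 10 genes had a window (Psat1 had 2), and the letters were found in those of Asns, Chac1 and Trib3, against 3.97% of 32851 windows. Windows are shown for Asns, called with neither EPZ5676 nor MI-2-2, for Chac1, called with MI-2-2 only, and for Phgdh and Shmt2, called with both. They run from 250 bases before the start up to it, with the matched letters in capitals. For Trib3, where the match starts at base 15 after the start, 30 bases around it are shown. They lie on the minus strand at chr6:7693210-7693459 (Asns), on the plus strand at chr2:119350992-119351241 (Chac1), and on the minus strand at chr2:152344028-152344057 (Trib3), chr3:98339970-98340219 (Phgdh) and chr10:127522445-127522694 (Shmt2).
Asns: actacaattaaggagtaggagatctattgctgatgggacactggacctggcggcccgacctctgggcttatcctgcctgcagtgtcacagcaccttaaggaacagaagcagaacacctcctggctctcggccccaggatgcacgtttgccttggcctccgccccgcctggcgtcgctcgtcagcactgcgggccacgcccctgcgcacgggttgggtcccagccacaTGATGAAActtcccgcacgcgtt
Chac1: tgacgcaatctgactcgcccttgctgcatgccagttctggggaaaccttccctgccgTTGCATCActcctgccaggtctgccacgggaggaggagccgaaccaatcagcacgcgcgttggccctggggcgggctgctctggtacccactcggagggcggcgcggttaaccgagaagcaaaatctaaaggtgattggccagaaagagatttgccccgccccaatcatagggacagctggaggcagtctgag
Trib3: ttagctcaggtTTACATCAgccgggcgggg
Phgdh: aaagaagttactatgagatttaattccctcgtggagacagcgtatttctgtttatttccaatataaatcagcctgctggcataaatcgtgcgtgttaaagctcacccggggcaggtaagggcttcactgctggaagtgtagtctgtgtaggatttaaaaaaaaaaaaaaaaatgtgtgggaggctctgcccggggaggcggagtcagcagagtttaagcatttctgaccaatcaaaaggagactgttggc
Shmt2: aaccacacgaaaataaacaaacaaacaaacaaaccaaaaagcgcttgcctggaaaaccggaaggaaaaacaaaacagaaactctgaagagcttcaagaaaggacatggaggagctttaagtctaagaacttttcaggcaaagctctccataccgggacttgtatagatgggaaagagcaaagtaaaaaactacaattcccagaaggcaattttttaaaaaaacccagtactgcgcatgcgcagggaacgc
The match of Asns starts 23 bases before the start and reads on the strand of the gene, and that of Chac1 starts 193 bases before it and reads on the other strand. No match in a window says only that these letters are not within it. The letters CACGTG, an E-box, were in none of the windows of the 10 genes and in 7.15% of all windows, and CCAAT was in those of 7 of the 10 genes (Atf4, Chac1, Ddit3, Mthfd2, Phgdh, Psat1 and Psph) and in 37.4% of all windows. The matches are sequence descriptions and not measured binding.

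Against DMSO, edgeR's quasi-likelihood test called 4 of the 10 genes lower with EPZ5676 (Phgdh, Psat1, Shmt2 and Mthfd2), beside 19.4% of all tested genes. With MI-2-2 it called 7 lower (the same 4 with Atf4, Chac1 and Psph), beside 21.2% of all tested genes. All 10 log2 fold changes were below 0 for both inhibitors. The median log2 fold change of the 10 genes was -0.58 with EPZ5676 and -0.94 with MI-2-2, where that of all tested genes was -0.058 and -0.054. Both inhibitor libraries were below both DMSO libraries in 7 of the 10 genes for each inhibitor, beside 33% of tested genes for EPZ5676 and 34.9% for MI-2-2. Phgdh, Psat1 and Shmt2 were called for both inhibitors in each of the 4 fits that left out 1 library of the comparison. In these fits the median log2 fold change of the 10 genes ran from -0.847 to -0.477 with EPZ5676 and from -1.37 to -0.729 with MI-2-2. That of all tested genes ran from -0.0694 to 0.0242 and from -0.0695 to 0.0226. The number of the 10 genes called and the share of all tested genes called both changed between these fits. Both comparisons share the DMSO libraries.

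Markers of maturing cells also differed in these libraries. The 10 progenitor and leukemia genes summed to 3259 and 3269 CPM with EPZ5676 and to between 2221 and 2998 CPM with MI-2-2, against at least 11240 CPM in DMSO. EPZ5676 put 9 of these 10 below both DMSO libraries and MI-2-2 put 8 there, beside 33% and 34.9% of tested genes. Flt3, counted among these, was at 0 reads with both, but at only 0.042 to 1.42 CPM in DMSO. The lower of these values is 1 read. The 9 neutrophil genes found, among them the granule gene Ltf, summed to between 42070 and 61090 CPM with these inhibitors and to 767 to 3939 CPM in DMSO, and the 9 macrophage genes found to between 2183 and 3239 CPM against 352 to 608 CPM. All 9 genes of each of these lists lay above both DMSO libraries. Of the 12971 tested genes, 4103 did so with EPZ5676 and 4287 with MI-2-2. These numbers and the shares above come from TMM-normalized CPM, and the marker levels from CPM by library total, so the scales differ. The part of these shifts in the levels of the 10 genes was not tested.

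**Figure D2:**
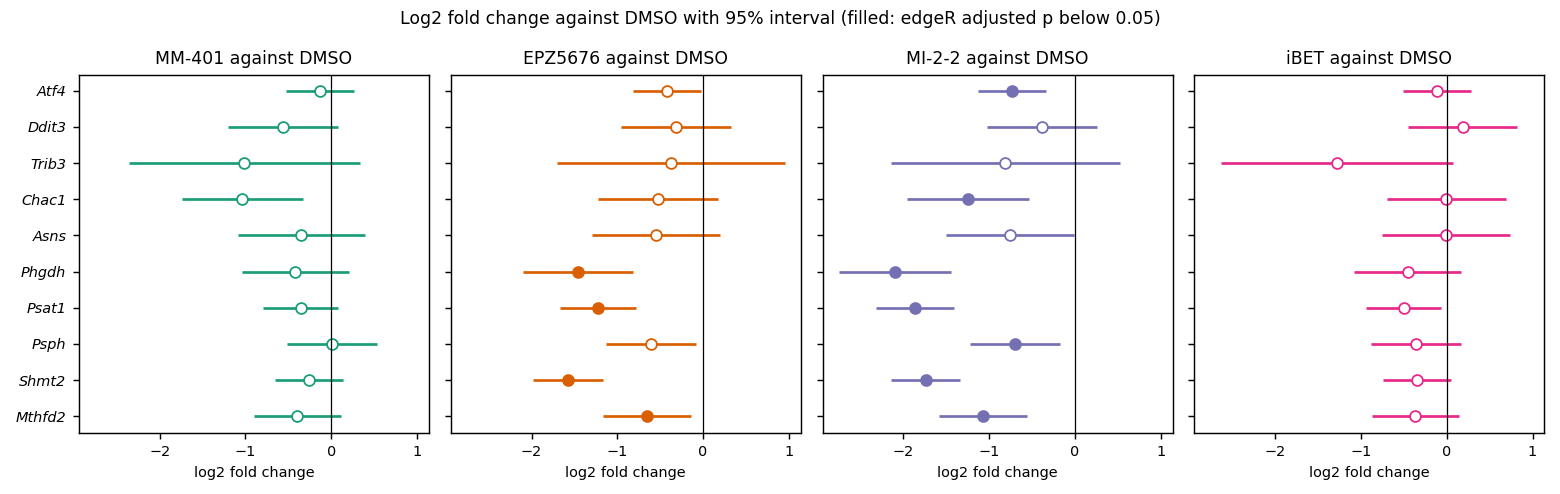
Log2 fold change (x axis) of the 10 genes for each inhibitor against DMSO, with 95% intervals from edgeR's fit of 10 libraries; filled points have an adjusted p below 0.05. With EPZ5676 4 points are filled and with MI-2-2 7, all to the left of 0, and none is filled for MM-401 or iBET.

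With MM-401 none of the 10 genes was called by edgeR's quasi-likelihood test, and neither was any of the 12971 tested genes (0%). For the 10 genes, 1 was at an unadjusted p below 0.05 (Chac1) and DESeq2 called 0 of the 10 and 2.14% of all tested genes. Some of all tested genes passed for MM-401 when DMSO replicate 1 was left out, but not when DMSO replicate 2 was left out. None of the 10 genes was called in either fit. Their median log2 fold change was -0.282 without DMSO replicate 1 and -0.454 without DMSO replicate 2. Chac1 was at 20.9 and 12.2 CPM with MM-401, below both DMSO libraries, with a log2 fold change of -1.04 (95% interval -1.75 to -0.33, edgeR adjusted p = 0.327). Trib3 was at 35.4 and 12.4 CPM, also below both DMSO libraries, with a log2 fold change of -1.01 and a wide 95% interval of -2.36 to 0.33. Phgdh (67.9 and 52.8 CPM), Mthfd2 (188 and 138 CPM) and Atf4 (698 and 569 CPM) overlapped the DMSO libraries. The 95% interval of Shmt2 was -0.65 to 0.13 and that of Psat1 -0.79 to 0.08, which leave out a fall as large as the log2 fold changes of these genes with EPZ5676. Both libraries were below both DMSO libraries in 4 of the 10 genes, beside 17.8% of tested genes. With MM-401, too, 8 of the 9 neutrophil and 7 of the 9 macrophage genes lay above both DMSO libraries, at sums of 4813 to 6171 CPM and 807 to 941 CPM. By TMM-normalized CPM, 2531 of the 12971 tested genes did so.

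With iBET the count by edgeR's quasi-likelihood test was also 0, where 13.9% of all tested genes were called (7.54% lower), with 1 of the 10 genes at an unadjusted p below 0.05 (Psat1) and 0 called by DESeq2. The libraries of an inhibitor were closest here, with a median log2 difference of 0.0954 between them over the 10 genes against 0.541 between the DMSO libraries. Phgdh was at 58.0 and 59.5 CPM, Psat1 at 375 and 383 CPM, Shmt2 at 358 and 364 CPM and Mthfd2 at 166 and 167 CPM. These 4 genes and Trib3 (23.2 and 16.5 CPM) lay below both DMSO libraries, 5 of 10 beside 26.9% of tested genes. The largest difference was that of Trib3, with a log2 fold change of -1.28 (95% interval -2.64 to 0.07, edgeR adjusted p = 0.175), and that of Psat1 was -0.50 (95% interval -0.94 to -0.07, edgeR adjusted p = 0.112). Ddit3, at 24.5 and 22.3 CPM, Chac1, at 40.0 and 27.8 CPM, and Asns, at 338 and 308 CPM, lay within or around the range of the DMSO libraries, with log2 fold changes of 0.19, -0.0047 and -0.011.

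The inhibitors were then compared with each other, without a DMSO library in the contrast. The DMSO libraries still entered the estimate of spread. Without both in the fit, the share of all tested genes called rose from 38.8% to 52.1% for iBET against MI-2-2, and Asns was also called. For EPZ5676 against MI-2-2 the share rose from 0.0154% to 0.982%, with 0 of the 10 genes called. For MM-401 against iBET it rose from 11.4% to 25.2%, with Chac1 and Ddit3 called. Of the 10 genes, 6 were called higher with iBET than with MI-2-2 (Atf4, Chac1, Phgdh, Psat1, Shmt2 and Mthfd2), beside 19.1% of tested genes called higher, and 6 were also higher with MM-401 than with MI-2-2 (Atf4, Phgdh, Psat1, Psph, Shmt2 and Mthfd2), beside 17.6%. Phgdh was 3.13-fold higher with iBET than with MI-2-2 (log2 fold change 1.64, standard error 0.280, edgeR adjusted p = 0.00358) and 3.21-fold higher with MM-401 (log2 fold change 1.68, standard error 0.281, edgeR adjusted p = 0.00407). Psat1 was 2.57-fold and 2.85-fold higher (edgeR adjusted p = 0.00174 and 0.00193), and Shmt2 2.62-fold and 2.79-fold (edgeR adjusted p = 0.00109 and 0.00153). These 3 genes were called in each fit that left out 1 library, whereas the count for iBET against MI-2-2 was 3 without MI-2-2 replicate 2 or iBET replicate 1 and that for MM-401 against MI-2-2 was 3 without either MM-401 library or MI-2-2 replicate 2. The progenitor and leukemia genes summed to 6745 to 7598 CPM with iBET and 11820 to 12040 CPM with MM-401, above the sums with MI-2-2, but not gene by gene. Kit, at 43.2 to 46.1 CPM with iBET and 53.5 to 74.7 CPM with MM-401, was below both MI-2-2 libraries, and so was Mpo with iBET, at 15.1 to 16.6 CPM. The part of these genes in the differences was not tested.

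Against EPZ5676, Phgdh, Psat1 and Shmt2 were called higher both with iBET, beside 18.5% of tested genes called higher, and with MM-401, beside 16.6%. Shmt2 was 2.34-fold higher with iBET (log2 fold change 1.23, standard error 0.173, edgeR adjusted p = 0.00158) and 2.49-fold higher with MM-401 (log2 fold change 1.31, standard error 0.173, edgeR adjusted p = 0.00201), and was called in each fit that left out 1 library. Psat1 was 1.66-fold higher with iBET and 1.83-fold higher with MM-401 (edgeR adjusted p = 0.0194 and 0.0114). Phgdh, 2.01-fold and 2.06-fold higher, lost both calls whenever 1 of the 4 libraries was left out. The count was 1 for iBET against EPZ5676 without EPZ5676 replicate 2 or either iBET library, and 1 for MM-401 against EPZ5676 without MM-401 replicate 1 or EPZ5676 replicate 2. Atf4 was 1.23-fold higher with iBET than with EPZ5676, which did not pass (95% interval of the log2 fold change -0.09 to 0.70, edgeR adjusted p = 0.194).

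**Figure D3:**
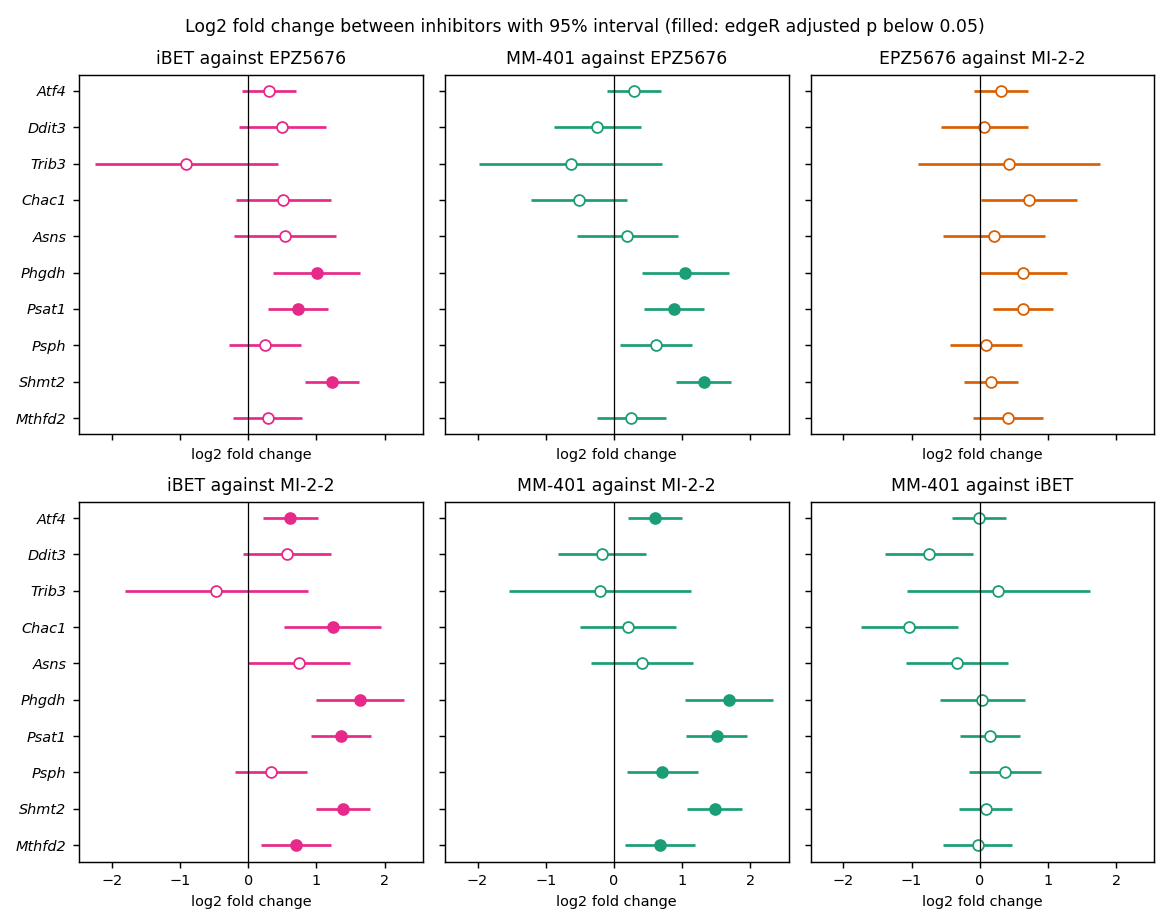
Log2 fold change (x axis) of the 10 genes between pairs of inhibitors, with 95% intervals from edgeR's fit of 10 libraries; filled points have an adjusted p below 0.05. Phgdh, Psat1 and Shmt2 are filled and right of 0 in the 4 panels that set iBET or MM-401 against EPZ5676 or MI-2-2, and no point is filled between EPZ5676 and MI-2-2 or between MM-401 and iBET.

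Between EPZ5676 and MI-2-2, all 10 genes were higher with EPZ5676 in the fit, and in 5 of them (Atf4, Chac1, Phgdh, Psat1 and Mthfd2) both EPZ5676 libraries were above both MI-2-2 libraries, beside 18.6% of tested genes. None was called by edgeR's quasi-likelihood test, which called 0.0154% of all genes. Of the 10 genes, 2 were at an unadjusted p below 0.05 (Psat1 and Chac1), and DESeq2 called 0. The log2 difference was 0.64 for Psat1 (95% interval 0.20 to 1.07, edgeR adjusted p = 0.464) and 0.72 for Chac1 (95% interval 0.01 to 1.43, edgeR adjusted p = 0.674), and for Shmt2 it was 0.16 with an interval of -0.23 to 0.56. Between MM-401 and iBET edgeR's quasi-likelihood test called 0 of the 10 genes, beside 11.4% of all genes, with 2 at an unadjusted p below 0.05 (Chac1 and Ddit3). DESeq2 called Chac1. Chac1 was 2.05-fold higher with iBET than with MM-401 and Ddit3 1.67-fold, and neither passed (edgeR adjusted p = 0.0684 and 0.129). Both MM-401 libraries were below both iBET libraries in 3 of the 10 genes (Chac1, Ddit3 and Asns), beside 33.8% of tested genes. For Phgdh the interval of this difference was -0.59 to 0.66 and for Shmt2 -0.31 to 0.48.

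Other genes of the pathway were counted in 6 lists. Cytosolic aminoacyl-tRNA synthetases, which charge tRNAs with amino acids and many of which ATF4 activates, were lower in nearly every gene of the list. Of 20 genes, 18 were called lower with EPZ5676 (all but Cars and Sars) and 19 with MI-2-2 (all but Sars), and all 20 had both inhibitor libraries below both DMSO libraries. Of all tested genes, 19.4% and 21.2% were called lower, and 33% and 34.9% had both libraries below. Their median log2 fold change was -0.82 with EPZ5676 and -0.96 with MI-2-2. Iars fell from 271 to 128 CPM with EPZ5676 (log2 fold change -1.08, standard error 0.121, edgeR adjusted p = 0.000868) and to 121 CPM with MI-2-2. Kars fell from 248 to 113 CPM with EPZ5676, and Lars from 278 to 117 CPM with MI-2-2. Against MI-2-2, 16 of the 20 were called higher with MM-401 and 14 with iBET, beside 17.6% and 19.1% of tested genes. The fits that left out 1 library called 13 to 17 of the 20 with EPZ5676 and 12 to 18 with MI-2-2. The lowest count was 12 without MI-2-2 replicate 2. Progenitor and leukemia genes fell and neutrophil genes rose in the same libraries, as given above, and their part was not tested.

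Folate and one-carbon genes, beside Shmt2 and Mthfd2, were called lower in 11 of 19 tested with each of EPZ5676 and MI-2-2. The shares of all tested genes called lower were 19.4% and 21.2%. Called higher with each was 1 gene, Ggh, which removes the glutamate tail that retains folate in the cell (log2 fold change 1.01 and 1.15). Ggh lost its call with EPZ5676 without DMSO replicate 2 or EPZ5676 replicate 2, and that with MI-2-2 without MI-2-2 replicate 2. Slc19a1, the folate carrier of the plasma membrane, fell 3.51-fold with EPZ5676 and 3.36-fold with MI-2-2 (edgeR adjusted p = 0.00118 and 0.00116). Fpgs, which adds the glutamate tail, fell 4.33-fold with EPZ5676 (edgeR adjusted p = 0.00127). Shmt1, the cytosolic counterpart of Shmt2, fell 3.07-fold with MI-2-2 (edgeR adjusted p = 0.00138). Of 18 genes of amino acid transport and metabolism, 8 were called lower with EPZ5676 and 10 with MI-2-2, beside the same shares. Slc7a1, a carrier of arginine and lysine, fell from 323 to 161 CPM with EPZ5676 and to 126 CPM with MI-2-2 (edgeR adjusted p = 0.00255 and 0.000914), and Slc1a4, a carrier of serine and alanine, fell 4.80-fold with EPZ5676 (edgeR adjusted p = 0.00609). Bcat1, an aminotransferase of branched-chain amino acids, fell 7.88-fold with MI-2-2 (edgeR adjusted p = 0.00211). The fits that left out 1 library called 8 to 14 of the folate genes lower for each inhibitor and, of the transport genes, 2 to 7 for EPZ5676 and 4 to 9 for MI-2-2. The lowest counts of transport genes were 2 without EPZ5676 replicate 2 and 4 without MI-2-2 replicate 2.

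Of 13 tested regulators that act with ATF4 or follow it, 3 rose with each of EPZ5676 and MI-2-2 and the other 10 were not called. Of all tested genes, 18.7% were called higher with EPZ5676 and 20.2% with MI-2-2, so that the count is near the background. Atf3, a bZIP repressor induced by stress, rose from 1.41 to 11.2 CPM with EPZ5676 (log2 fold change 2.99, standard error 0.306, edgeR adjusted p = 0.000696) and to 12.3 CPM with MI-2-2. Jdp2, a bZIP factor related to it, rose 2.67-fold with EPZ5676 and 2.13-fold with MI-2-2 (edgeR adjusted p = 0.000799 and 0.00158), and Cebpb was the third gene called. Genes of the stress kinases and of eIF2 and its exchange factor were called lower in 4 of 13 with EPZ5676 and 5 of 13 with MI-2-2, beside the 19.4% and 21.2% of all tested genes given above. Eif2b3, a subunit of the exchange factor, fell 2.37-fold and 2.22-fold (edgeR adjusted p = 0.00246 and 0.00295). Eif2b5, another subunit of it, fell 1.95-fold with EPZ5676 (edgeR adjusted p = 0.00474), and Eif2s2, the beta subunit of eIF2, fell 1.85-fold with MI-2-2 (edgeR adjusted p = 0.00121). Eif2ak3, the kinase PERK, was the 1 gene of this list called higher, with MI-2-2 (log2 fold change 0.51, edgeR adjusted p = 0.0429), a call that was lost without DMSO replicate 1, without either MI-2-2 library, with scaling by total counts and without the filter on low counts. Genes of the other branches of the unfolded protein response were called lower in 8 of 16 with EPZ5676 and 5 of 16 with MI-2-2, with Edem1 called higher with MI-2-2, though not without MI-2-2 replicate 2. Pdia4, a chaperone of the endoplasmic reticulum, fell 2.21-fold with EPZ5676 (edgeR adjusted p = 0.00218), and Ern1, the sensor IRE1, fell 2.62-fold and 2.34-fold (edgeR adjusted p = 0.00369 and 0.00545). Atf6, the sensor of another branch, was lower with MI-2-2 (log2 fold change -0.59, edgeR adjusted p = 0.00855). Without DMSO replicate 1, more genes of the other branches were called lower with each inhibitor, and more of the stress kinase and eIF2 genes with EPZ5676. Fewer genes of the other branches were called lower when either library of the inhibitor was left out. The share of all tested genes called moved the same way in these fits. The median log2 fold change with EPZ5676 and MI-2-2 was -0.88 and -1.19 for the transport genes, -0.76 and -0.62 for the other branches, -0.39 and -0.39 for the stress kinase and eIF2 genes, and -0.23 and -0.25 for the regulators, against -0.058 and -0.054 over all tested genes. That of the folate genes was -1.34 with EPZ5676 and -1.08 with MI-2-2. With MM-401 edgeR's quasi-likelihood test called 0 of 99 tested genes of the 6 lists, with 9 at an unadjusted p below 0.05. DESeq2 called 1 of them, beside 2.14% of all tested genes.

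**Figure D4:**
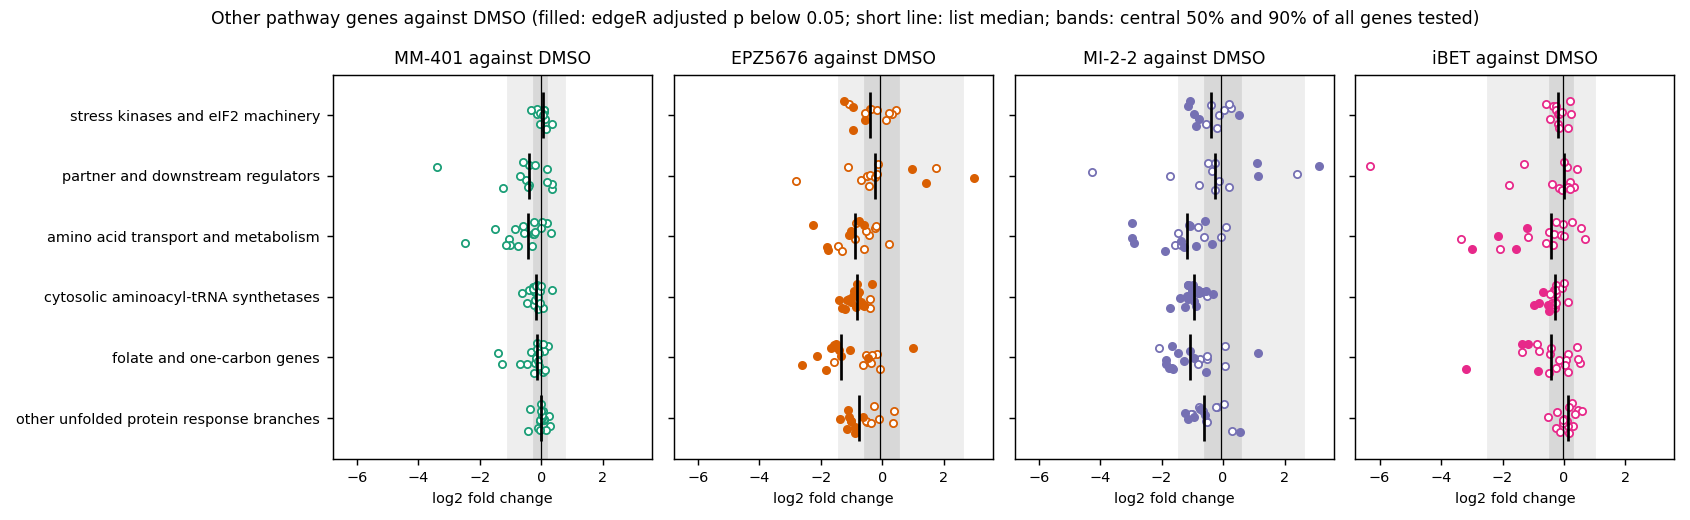
Log2 fold change against DMSO (x axis) of each gene of the 6 other pathway lists (points; filled with an edgeR adjusted p below 0.05), with the list median as a short line and the central 50% and 90% of all tested genes as bands. With EPZ5676 18 and with MI-2-2 19 of the 20 synthetases are filled and left of 0, while 3 partner and downstream regulators are filled on the right for each.

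Genes with the most similar pattern were ranked by Pearson's r of log2 CPM over the 10 libraries among the 9931 genes whose mean level reached 5 CPM. The libraries share conditions, so r describes likeness and carries no test. Nars, the asparaginyl-tRNA synthetase, was the closest gene to both Phgdh (r = 0.988) and Psat1 (r = 0.991). Phgdh and Psat1 followed each other as closely (r = 0.990), and Shmt2 followed them at 0.963 and 0.967. Shmt2 was closest to Zbtb25 (r = 0.994), Eif3c (r = 0.991) and Nup188 (r = 0.991). Asns was closest to Ikbip (r = 0.967) and then to Pycr1 (r = 0.966), a proline synthesis enzyme from the list of amino acid genes. Atf4 was closest to Rps21 (r = 0.959), Mthfd2 to Gtf2e2 (r = 0.973), Psph to Mettl4 (r = 0.978), Chac1 to Tiprl (r = 0.917) and Ddit3 to Usb1 (r = 0.927). Trib3 was closest to Pkm (r = 0.974) and Pgk1 (r = 0.948), both enzymes of glycolysis. Within the 10 genes, Trib3 and Ddit3 stood apart, with r of at most 0.519 and 0.656 to any other member, while Atf4, Phgdh, Psat1 and Shmt2 were at 0.890 or more with each other.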

How the data were processed

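Total RNA of MAF9 cells was sequenced after 4 days of treatment, in 2 libraries, described as biological duplicates, for each of 5 conditions. The labels do not name the animals. By its Y-linked reads and Xist, DMSO replicate 2 came from other cells than the remaining libraries. P-values measure the spread between these libraries, which for DMSO includes this difference. The authors deposited 1 table of whole-number read counts per gene symbol, without normalization. The submitters' processing notes name TopHat2, Subread, DESeq and mm9, but neither their roles nor the strand setting, the treatment of reads with several matches or the annotation version. Multi-mapped or opposite-strand reads could change the counts of genes with pseudogenes or overlapping partners. Totals of 20394762 to 29473127 reads set the counting error, and intervals and floors cover no other error than the fit's.

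The counts were fitted in 1 model of all 10 libraries with edgeR 4.0.16 (R 4.3.3; filterByExpr, TMM, quasi-likelihood F test), which tested 12971 of 24015 genes. P-values were adjusted by Benjamini and Hochberg over all tested genes within each of 10 comparisons, at a threshold of 0.05, and standard errors are the log2 fold change divided by the square root of F. A comparison shares both DMSO libraries with the others against DMSO. RPKM used GENCODE M21 exon lengths. The fit was also run on simulated counts with known changes, of which no value is given here. Alternatives were DESeq2 size factors, scaling by total counts, no filter, the Wald test of DESeq2 1.42.0, a replicate block, leaving out each library, and, between inhibitors, leaving out both DMSO libraries. The alternatives for the pathway lists were added after the results were seen.

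The 10 genes, the 6 pathway lists, the marker lists and the tests were chosen with earlier results of these data known. All 10 genes are named. From each list the text names the 2 called genes with the lowest p per comparison. Genes called higher beyond these, those of a list not called and those ranked by likeness were named after their values were seen, apart from the closest 3 by r. Sequences are from RefSeq GRCm38.p6. The counts carry no coordinates.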

Additional observations from a re-analysis of the deposited data

How the results depend on the processing

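The calls of Phgdh, Psat1 and Shmt2 for EPZ5676 and MI-2-2 against DMSO held under every alternative run. With 1 library left out, the count of called genes among the 10 ranged from 3 to 6 for EPZ5676 against DMSO, 3 to 7 for MI-2-2, 1 to 2 for iBET against EPZ5676 and for MM-401 against EPZ5676, 3 to 5 for iBET against MI-2-2 and for MM-401 against MI-2-2, and over the 6 pathway lists from 35 to 63 for EPZ5676, 34 to 64 for MI-2-2, 0 to 33 for iBET and 0 to 7 for MM-401. A fit that leaves a condition with 1 library assumes that it varies like the others. The share of all tested genes called changed between these fits as well, so these ranges are not particular to the genes described. Chac1 was called between MM-401 and iBET by DESeq2 (1 gene called), beside 18% of all tested genes. Without both DMSO libraries 2 genes were called there, beside 25.2%. Of the 99 tested genes of the pathway lists, DESeq2 called 1 for MM-401, beside 2.14% of all tested genes, and 22 for iBET, beside 21.8%. Both counts are near the background. With scaling by total counts, 8 stress kinase and eIF2 genes were lower with EPZ5676 (4 otherwise) and 11 genes of the other unfolded protein response branches with MI-2-2 (5 otherwise; 8 without the filter and 9 with DESeq2). Scaling by total counts called 42.9% of all tested genes for EPZ5676 and 44.8% for MI-2-2, where TMM scaling called 38.1% and 41.4%. The cause was not tested.

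The replicate numbers are 2 per condition, and the labels do not say what they share, so they were not taken as pairs. Deviations from the condition means correlated at 0.278 to 0.666 between conditions. With a replicate block the count was 6 for EPZ5676 against DMSO (Asns and Psph added), beside 47.6% of all tested genes called in either direction. For MI-2-2 the count was 9 (Asns and Trib3 added), beside 50.6%, and for iBET 1 (Trib3), beside 23.8%. Against EPZ5676 it was 5 for iBET, beside 47.8%, and 5 for MM-401, beside 43.4% (4 higher and Trib3 lower in each). Against MI-2-2 it was 7 for iBET, beside 48.4%, and 6 for MM-401, beside 46%. Between MM-401 and iBET it was 1 (Chac1), beside 19%. For the pathway lists with iBET it was 23 of 99, beside 23.8%. The counts against EPZ5676, those of 1 and that of the lists are near or below these shares.

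Values that changed sign belonged to differences that were not called. Between MM-401 and iBET, Atf4 was at 0.0086 with DESeq2 size factors and with DESeq2, and at 0.033 without both DMSO libraries, where Mthfd2 was at 0.019. Psph with MM-401 was at -0.022 with scaling by total counts, Chac1 with iBET at 0.0048 without the filter and Asns with iBET at 0.053 with the replicate block.

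Leaving out 1 library at a time also turned the sign of some uncalled log2 fold changes. For MM-401 against DMSO it ran from -0.75 to 0.18 for Asns, -0.28 to 0.011 for Atf4 and -0.28 to 0.35 for Psph. For EPZ5676 against DMSO it ran from -0.59 to 0.062 for Ddit3 and -0.86 to 0.0082 for Trib3. For iBET against DMSO it ran from -0.40 to 0.52 for Asns, -0.25 to 0.035 for Atf4, -0.11 to 0.57 for Ddit3 and -0.29 to 0.25 for Chac1. For MM-401 against MI-2-2 it ran from -0.23 to 0.54 for Chac1, -0.49 to 0.085 for Ddit3 and -1.15 to 0.56 for Trib3. For MM-401 against iBET it ran from -0.68 to 0.84 for Trib3, -0.16 to 0.21 for Phgdh, -0.030 to 0.30 for Psat1, -0.051 to 0.21 for Shmt2, -0.17 to 0.12 for Atf4 and -0.27 to 0.18 for Mthfd2. For MM-401 against EPZ5676 it ran from -0.56 to 0.019 for Ddit3 and -0.0024 to 0.43 for Asns. For EPZ5676 against MI-2-2 it ran from -0.067 to 1.20 for Trib3, -0.066 to 0.54 for Asns, -0.052 to 0.35 for Shmt2, -0.12 to 0.23 for Ddit3 and -0.13 to 0.35 for Psph. For iBET against MI-2-2 it ran from -0.97 to 0.29 for Trib3.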

Other observations

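With iBET, 13 of the 99 tested genes of the 6 lists were called by edgeR against DMSO, all of them lower, where 7.54% of all tested genes were called lower. Bcat1, the aminotransferase of branched-chain amino acids, was at 1.53 CPM with iBET and 12.1 CPM in DMSO (log2 fold change -2.98, standard error 0.447, edgeR adjusted p = 0.00792). Slc7a11, the cystine carrier that feeds glutathione synthesis, fell 2.98-fold (edgeR adjusted p = 0.0129). Aldh1l1, which oxidizes formyl-tetrahydrofolate, was at 2.03 and 1.15 CPM against 6.23 and 22.8 CPM in DMSO (edgeR adjusted p = 0.0151). The higher DMSO value is that of replicate 2, and the size of the fall depends on it. Slc19a1 fell 2.61-fold (edgeR adjusted p = 0.00903). Dars and Lars were among the 5 synthetases called lower, at 1.97-fold and 1.59-fold. All of these calls were lost without either iBET library, and more genes of the 6 lists were called without either DMSO library. In each of these fits the count over all tested genes moved the same way.

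Trib3 and Asns were higher in replicate 1 than in replicate 2 of each of the 5 conditions, by 1.61-fold and 1.88-fold in DMSO. The log2 CPM of Trib3 followed Pkm and Pgk1 over the libraries with r = 0.974 and 0.948, and Shmt2 with r = 0.104. What the replicate numbers share is not given in the labels.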
